A study of Mus musculus with 10 samples.

Results

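The cytosolic ribosomal protein genes encode the proteins of the large and small subunits of the ribosome that translates nuclear messages. They were taken as every protein-coding gene of the deposited count table whose name starts with Rpl or Rps followed by a digit or a p, together with Rpsa and without the Rps6k kinase genes. The rule found 94 genes of 54532 in the table, of which 22046 are protein-coding. They comprise 46 large-subunit and 31 small-subunit genes, called core genes here, and 8 paralogues (Rpl3l, Rpl7l1, Rpl10l, Rpl22l1, Rpl36al, Rpl39l, Rps27l and Rps27rt). A further 8 genes carry pseudogene names although annotated as protein-coding, and Rps19bp1 encodes a binding protein of Rps19 and no ribosomal subunit. All 94 were counted in all 10 libraries, and Rpl13a-ps1, Rpl36-ps4 and Rpl9-ps1 were at 0 in every one of them.

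Poly-A RNA sequencing was made from cultured mouse cells, all labelled strain 129SV, and compared epiblast stem cells (EpiSC), epiblast-like cells (EpiLC), embryonic stem cells (ESC) and embryonic fibroblasts (MEF). ESC stand for the naive state before implantation, EpiSC for the epiblast after implantation, and EpiLC for the transient state that ESC pass through on that way. The 5 EpiSC libraries were 2 haploid p53-knockout libraries with the line names haEpi1 and haEpi5, 1 female and 1 male wild-type diploid library, and 1 diploid p53-knockout library. The 2 EpiLC libraries were both haploid, 1 wild-type and 1 p53-knockout, and the 2 ESC libraries were both wild-type, 1 diploid and 1 haploid. The MEF library was wild-type and diploid and had no replicate. The replicates of a cell type differed in line, sex, ploidy or p53 label, and p-values reflect only how far these particular libraries spread. The labels do not say which cultures were separate.

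Total counts ran from 15862113 to 18814003 per library, so 3 counts, taken as the floor, equal 0.150 to 0.194 CPM, a gene's count relative to the TMM-scaled library total. Marker genes followed the labelled cell types: naive markers summed to 2532 and 4841 CPM in ESC against 60.7 to 115 in EpiSC, and fibroblast markers to 60510 CPM in MEF. The EpiLC libraries differed, with naive marker sums of 1420 CPM in p53-knockout and 896 CPM in wild-type EpiLC, and post-implantation marker sums of 1135 and 4031 CPM, against 299 and 307.5 in ESC and 1060 to 1915 in EpiSC. Fibroblast markers were not absent elsewhere: all 11 were detected in each EpiSC library, with sums of 366 to 1564 CPM, and the haploid ESC library summed to 923 CPM against 17.5 in the diploid one, where 4 of 11 were at 0. Their part in the results below was not tested. Trp53, the gene encoding p53, did not separate the labels. Libraries labelled knockout held 2.17 to 61.8 CPM and those labelled wild-type 28.5 to 375 CPM. Cdkn1a, listed with the p53 axis, stood at 4.341 CPM in diploid p53-knockout EpiSC and 12.02 CPM in p53-knockout EpiLC. In haEpi1 and haEpi5 it stood at 71.33 and 103.6 CPM, within the wild-type range of 70.8 to 215 CPM. Mdm2 stood at 78.89, 90.78, 146.3 and 183.6 CPM in the same order, against 80.9 to 211.1 CPM in wild type. The knockout-labelled libraries thus differed in these genes, whose part in the p53 comparisons was not tested. Directions drawn from the p53 label rest on the label alone. Ribosomal RNA genes took 0.0455% of counts in p53-knockout EpiLC, 0.0231% in wild-type EpiLC, 0.0152% in diploid p53-knockout EpiSC and at most 0.00437% in the others, and mitochondrial genes took 3.83% in haEpi5 against 1.20% to 2.20% elsewhere.

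Each ribosome holds a copy of nearly every core protein, and cells keep the messages for them at similar levels. Many vertebrate ribosomal protein messages begin at a C followed by a run of pyrimidines, the terminal oligopyrimidine (TOP) motif, through which mTOR signalling and the RNA-binding protein Larp1 control their translation. Rpl10l and Rpl39l are autosomal relatives of the X-linked genes Rpl10 and Rpl39, best known from the testis, where the X chromosome is silenced in meiosis, and Rpl3l is known from heart and skeletal muscle.

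Start sites are shown first, because the TOP motif is known from many ribosomal protein genes. The 15 bases before each RefSeq start and the 15 from it on are given 5′ to 3′ on the gene's strand (RefSeq, GRCm38.p6), and capitals mark the C or T run at the start for TOP starts and the first transcribed base for the others.
Rps6: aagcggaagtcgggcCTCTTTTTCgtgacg
Rps18: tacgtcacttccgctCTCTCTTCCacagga
Rpl15: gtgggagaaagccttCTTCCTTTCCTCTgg
Rpl35: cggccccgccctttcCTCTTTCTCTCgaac
Rps27: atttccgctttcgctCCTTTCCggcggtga
Rps27rt: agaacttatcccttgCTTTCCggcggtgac
Rpl10l: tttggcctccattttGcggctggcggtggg
Rpl39l: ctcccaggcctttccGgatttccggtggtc
The windows lie at chr4:86857353-86857382 for Rps6, chr17:33955651-33955680 for Rps18, chr14:18270972-18271001 for Rpl15, chr2:39005117-39005146 for Rpl35, chr3:90213634-90213663 for Rps27, chr9:114982725-114982754 for Rps27rt and chr12:66284387-66284416 for Rpl10l, all on the minus strand, and at chr16:10170213-10170242 on the plus strand for Rpl39l. Of the 94 genes, 66 matched the promoter table, and 14 of these (21.2%) had a start with a C followed by at least 4 C or T, read on the transcribed strand only. The share was 22.8% of 57 core genes and 3.01% of 27025 genes with a promoter. Of the 8 paralogues only Rps27rt (12.5%) matched the motif at its annotated start. The core genes printed above were all among those with the motif, which most core genes lacked. Rpl10 and Rpl39, the core relatives of Rpl10l and Rpl39l, lacked it as well. Annotated starts can lie some bases from the used ones, so a start without the motif says only that these letters are not at that position.

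Levels are compared here among the ribosomal protein genes only, on FPKM, which divides by gene length. Mean FPKM over the 10 libraries was highest for Rplp1, a protein of the ribosomal stalk that recruits translation factors, at 2667. It was followed by Rpl36 at 1306, Rpl41 at 1019, Rpl8 at 1018 and the stalk gene Rplp0 at 949. The lowest means above 0 were those of Rpl3l at 0.604, Rpl36al at 1.28, Rpl24 at 2.14, Rpl36a-ps1 at 2.44 and Rpl10-ps3 at 3.06. Rpl24 encodes a core protein of the large subunit, and its low value stands beside near-identical copies that held most of the shared counts: the gene took 16.6% to 37.2% of the counts given to it and its copies. With them it still averaged only 161 counts per library.

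Together the 94 genes took 3.55% to 7.87% of all counts. The share was 4.77% in female, 5.47% in male, 4.66% in haEpi1, 5.50% in haEpi5 and 4.82% in diploid p53-knockout EpiSC. It was 7.87% in wild-type and 5.73% in p53-knockout EpiLC, 6.43% in diploid and 4.66% in haploid ESC, and 3.55% in MEF. The 95% exact binomial interval, which covers counting error only, was 7.86% to 7.88% in wild-type EpiLC and no wider in any other library, so the differences between libraries of a cell type far exceeded counting error. Mean shares were 5.04% ± 0.41 in EpiSC (SD, n = 5), 5.54% ± 1.25 in ESC (SD, n = 2) and 6.80% ± 1.51 in EpiLC (SD, n = 2). EpiSC and ESC libraries overlapped, the lower EpiLC library lay below the diploid ESC library, and MEF was lowest of all 10. In such bulk samples, fewer cells of a type and less RNA per cell cannot be told apart.

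**Figure D1:**
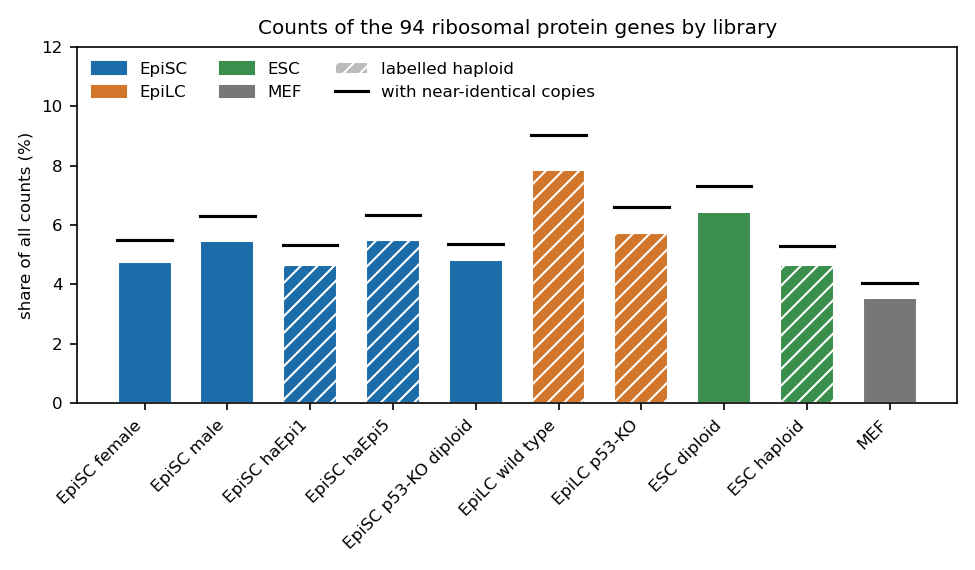
Share of all counts (%) taken by the 94 ribosomal protein genes in each library, alone and with their near-identical copies added; the axis starts at 0. Wild-type EpiLC is highest at 7.87% (9.02% with copies) and MEF lowest at 3.55% (4.05%).

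The core genes' typical level shifted from library to library. For the 71 core genes with at least 10 CPM in every library, the deviation of each from its own mean was taken on the log2 scale. In wild-type EpiLC the median deviation was 0.80, with 70 of 71 genes above their mean. In diploid ESC it was 0.28 with 63 above, in p53-knockout EpiLC 0.11 with 48 above, in male EpiSC 0.07 with 46 above and in haEpi5 0.04 with 41 above. The other libraries lay below: -0.20 in haEpi1, -0.22 in female EpiSC, -0.23 in diploid p53-knockout EpiSC, -0.29 in MEF and -0.32 in haploid ESC. Coding length divided the genes in some libraries: in diploid p53-knockout EpiSC the 16 core genes with under 350 coding bases had a median of -0.43 with 1 above, and the 21 with at least 600 a median of -0.04 with 9 above. In haEpi5 the short ones had -0.16 with 6 above and the long ones 0.12 with 15 above. The short ones also had the lower median in wild-type and p53-knockout EpiLC. In every other library they had the higher one, as in haEpi1 with -0.06 for short and -0.33 for long ones. The values were -0.07 and -0.38 in female EpiSC and -0.17 and -0.42 in haploid ESC. The part of length in these shifts was not tested. The 84 ribosome biogenesis genes, which make and assemble ribosomes in the nucleolus, were also highest in wild-type EpiLC, with a median deviation of 0.81 and 84 of 84 above their mean. In MEF their median was -0.996, further down than that of the core genes. The 39 translation factor genes had a median of 0.60 in wild-type EpiLC and -0.45 in MEF.

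**Figure D2:**
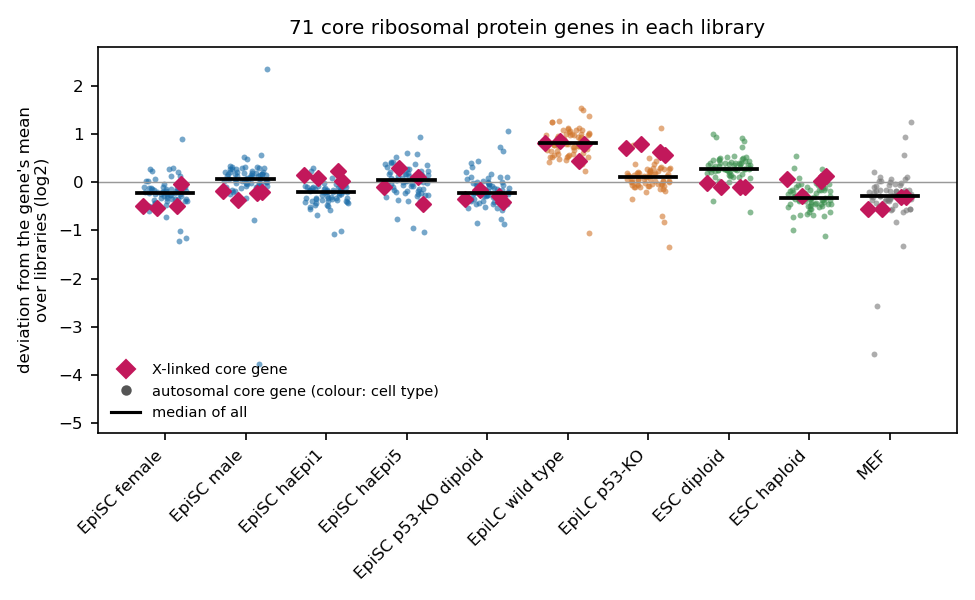
Deviation of each of 71 core ribosomal protein genes from its own mean over the 10 libraries (log2, vertical axis), by library. Nearly all genes lie above 0 in wild-type EpiLC (median 0.80), while haploid ESC has the lowest median (-0.32). The lowest single points are Rpl26 in male EpiSC (-3.77) and Rps18 in MEF (-3.57).

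The genes differed in how much they varied among the 9 pluripotent libraries. Among 78 genes with at least 10 CPM in all of these, the SD of log2 CPM was lowest for the binding protein gene Rps19bp1 at 0.18, then for the large-subunit genes Rpl15 at 0.25, Rpl27 at 0.26, Rpl18 at 0.29 and Rpl37 at 0.29. It was highest for the core genes Rpl26 at 1.51 and Rpl30 at 1.19, the paralogue Rps27rt at 1.11, the core gene Rps3a1 at 0.99 and the paralogue Rpl22l1 at 0.91. Rpl26, Rpl30 and Rps3a1 were also among the genes whose counts were divided most unequally with near-identical copies, as described further on.

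The comparison of EpiSC with ESC asks how the post-implantation state differs from the naive one. No ribosomal protein gene rose and 4 of 91 tested genes fell in EpiSC (edgeR quasi-likelihood test, Benjamini-Hochberg adjusted p under 0.05 over 21104 genes), where 6.86% of all genes were higher and 10.1% lower. The 4 were the paralogues Rpl10l, Rpl39l and Rpl3l and the core gene Rpl35a. The median log2 fold change of the 91 genes was -0.18, with 71 negative, against -0.02 for all genes. Leaving out diploid ESC gave a median of 0.21 and leaving out haploid ESC -0.49. Without haEpi1, haEpi5, female EpiSC or diploid ESC, each left out alone, 2 calls remained, Rpl10l and Rpl39l, and 7.81% to 12.9% of all genes were called.

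Rpl10l (chr12:66283379-66284401, minus strand) showed the widest separation. It stood at 156 CPM in diploid and 130 CPM in haploid ESC and at 56.0 CPM in wild-type and 108 CPM in p53-knockout EpiLC. It was at 0 in female, male, haEpi1 and diploid p53-knockout EpiSC and at 0.346 CPM in haEpi5, and MEF held 0. All 4 ESC and EpiLC libraries were thus above every EpiSC library. The same 4 libraries held the naive marker sums of 896 to 4841 CPM, whose part in the values of Rpl10l and Rpl39l was not tested. Rpl10l averaged 0.0691 ± 0.155 CPM over the EpiSC libraries (SD, n = 5) and 145 ± 24.1 CPM over the ESC ones (SD, n = 2), and the fitted log2 fold change was -10.93 ± 0.80 (SE, edgeR adjusted p = 8.51e-05). The fitted size depends on how zero counts are handled and ran from -14.28 to -7.07 over 19 alternatives, all of which kept the call. On FPKM, Rpl10l reached 154 in diploid ESC while its X-linked relative Rpl10 stood at 515 there, so the paralogue was present beside the core gene and at a lower level. Rpl10 itself did not pass the test between EpiSC and ESC, with a log2 fold change of -0.10 ± 0.25 (SE, edgeR adjusted p = 0.832).

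Rpl39l (chr16:10170226-10174911, plus strand) showed a like order at lower levels. It stood at 75.8 CPM in diploid and 47.5 CPM in haploid ESC and at 20.7 and 21.7 CPM in wild-type and p53-knockout EpiLC. In EpiSC it was at 0.821 CPM in female, 0.113 in male, 1.06 in haEpi1, 1.38 in haEpi5 and 0 in the diploid p53-knockout library, and in MEF it was at 8.22 CPM. EpiSC libraries were therefore the lowest of all, below MEF as well. The log2 fold change between EpiSC and ESC was -6.52 ± 0.84 (SE, edgeR adjusted p = 0.0013), and all 19 alternatives kept the call. Its core relative Rpl39 changed by -0.25 ± 0.21 in the same comparison (SE, edgeR adjusted p = 0.450).

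The coding sequences of Rpl39 and Rpl39l are printed because the contrast between them is that of a short protein gene on X and its autosomal relative. They are 156 bases each in GENCODE vM21 transcripts (mm10), 85.3% identical, and capitals mark the 23 bases that differ.
Rpl39: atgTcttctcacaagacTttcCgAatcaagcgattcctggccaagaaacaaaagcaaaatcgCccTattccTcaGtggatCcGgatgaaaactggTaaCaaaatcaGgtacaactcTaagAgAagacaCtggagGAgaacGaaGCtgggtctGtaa
Rpl39l: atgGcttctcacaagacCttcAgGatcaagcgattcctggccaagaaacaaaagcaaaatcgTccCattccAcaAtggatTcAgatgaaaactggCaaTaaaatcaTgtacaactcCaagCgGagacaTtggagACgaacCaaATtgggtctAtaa
Rpl10 and Rpl10l, both of 645 coding bases, are 84.8% identical, and Rpl3 and Rpl3l 74.4% over the aligned part. At these identities none of the 3 pairs reached the 95% taken here as near-identical.

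Rpl3l and Rpl35a fell closer to the threshold. Rpl3l stood at 2.92 CPM in diploid ESC, 0.999 in haploid ESC, 3.16 in wild-type EpiLC and 1.64 in p53-knockout EpiLC, and at 0.109, 0, 0.301, 0.403 and 0.372 CPM in female, male, haEpi1, haEpi5 and diploid p53-knockout EpiSC. Counts were low, with 1 in MEF and none in the male library. The log2 fold change of Rpl3l was -3.05 ± 0.86 (SE, edgeR adjusted p = 0.0371), a call that 6 of 19 alternatives lost. Rpl35a, a core protein of the large subunit, stood at 264, 195, 277, 200 and 192 CPM in female, male, haEpi1, haEpi5 and diploid p53-knockout EpiSC against 429 and 328 CPM in diploid and haploid ESC. Its log2 fold change was -0.78 ± 0.24 (SE, edgeR adjusted p = 0.0485), and 8 of 19 alternatives lost the call, among them the one that added its near-identical copies (adjusted p = 0.0564).

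**Figure D3:**
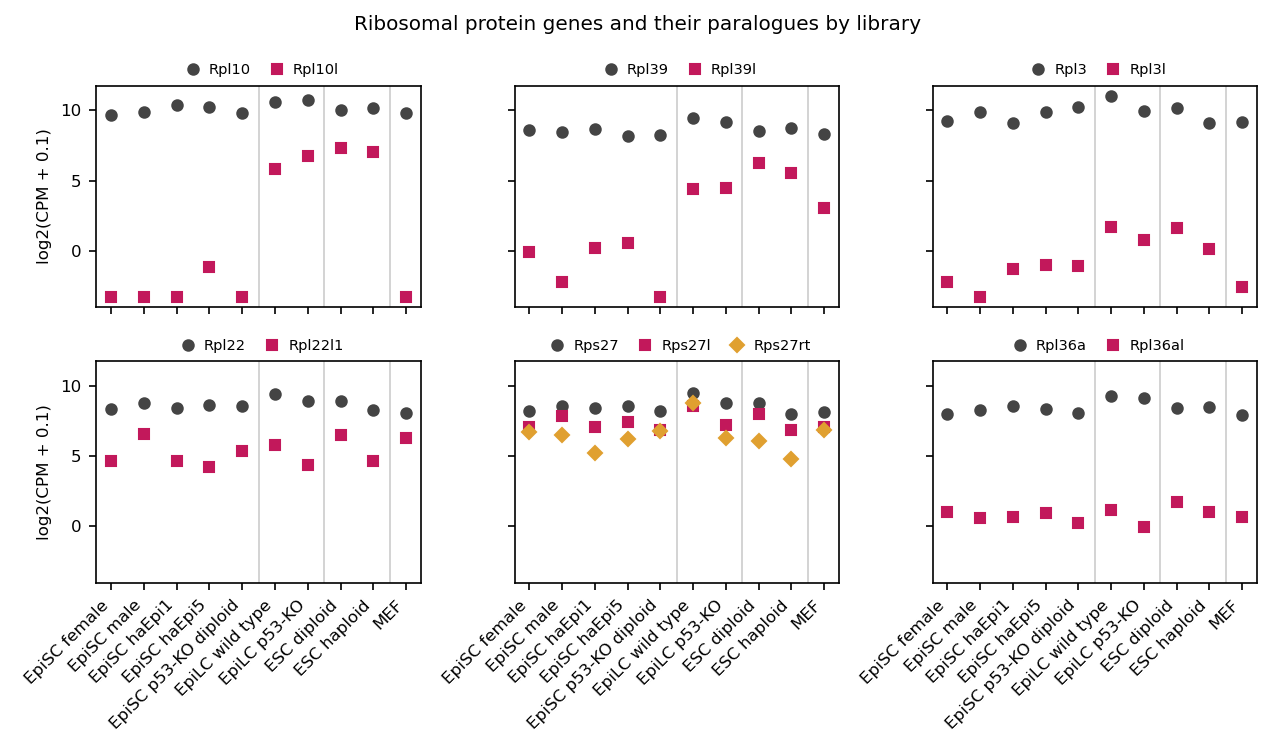
Levels of ribosomal protein genes and their paralogues in each library, as log2(CPM + 0.1). Rpl10l and Rpl39l lie high in the 4 ESC and EpiLC libraries and far lower in the 5 EpiSC libraries, while Rpl10 and Rpl39 stay high in all 10.

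Comparing EpiLC with ESC addresses the exit from the naive state. No ribosomal protein gene passed edgeR's test in this comparison, where 0.317% of all genes were higher and 0.109% lower in EpiLC. At an unadjusted p under 0.05, 12 of 91 passed, against 14.4% of all genes. DESeq2 called 1 of them, Rps27rt, against 5.46% of all genes, and limma called 0, against 1.70%. The median log2 fold change was 0.44 with 72 of 91 positive, against -0.05 for all genes. That median was -0.01 without wild-type EpiLC, 0.11 without haploid ESC, 0.72 without p53-knockout EpiLC and 0.80 without diploid ESC, so its size rested on single libraries. Rps4x, a small-subunit core gene on X, had the values 1963 and 1868 CPM in wild-type and p53-knockout EpiLC against 1014 and 885 CPM in diploid and haploid ESC. Its log2 fold change was 1.01 ± 0.32 (SE, edgeR adjusted p = 0.215).

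EpiSC and EpiLC, the stable and the transient epiblast-like states, were compared with the same EpiSC and EpiLC libraries as above. No gene rose and 7 of 91 fell in EpiSC, where 3.77% of all genes were higher and 5.88% lower (edgeR). The median was -0.63 with 81 of 91 negative, against 0.01 for all genes. Besides Rpl10l, Rpl39l and Rpl3l, whose log2 fold changes were -10.12, -4.97 and -3.33, the core genes Rpl36a, Rpl39, Rps23 and Rps4x fell. With p53 label and ploidy as covariates only Rpl10l and Rpl39l kept the call. The same 2 remained without wild-type EpiLC, where the median was -0.15. There were 3 calls without diploid p53-knockout EpiSC and 4 without haEpi1 or without female EpiSC, and these 5 fits called 4.77% to 6.63% of all genes.

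Rpl36a, a large-subunit core gene (chrX:134585654-134588062), stood at 252, 310.4, 391, 331 and 277 CPM in female, male, haEpi1, haEpi5 and diploid p53-knockout EpiSC and at 617 and 575 CPM in wild-type and p53-knockout EpiLC. Its log2 fold change was -0.96 ± 0.20 (SE, edgeR adjusted p = 0.0200). Rpl39 (chrX:37082520-37085402) stood at 385, 346, 406, 289 and 297 CPM in the same order of EpiSC libraries against 691 and 583 CPM in EpiLC. Its log2 fold change was -0.91 ± 0.20 (SE, edgeR adjusted p = 0.0236). Rps4x (chrX:102184941-102189394) stood at 745, 838, 1150, 1336 and 975 CPM in those EpiSC libraries against 1963 and 1868 CPM in EpiLC. The log2 fold change of Rps4x was -0.95 ± 0.26 (SE, edgeR adjusted p = 0.0456). Rps23, near the decoding centre of the small subunit (chr13:90922958-90924950), stood at 734, 778, 651, 742 and 646 CPM in those EpiSC libraries against 1815 CPM in wild-type and 1026 CPM in p53-knockout EpiLC. Here the EpiLC libraries themselves differed widely, and the log2 fold change was -1.03 ± 0.26 (SE, edgeR adjusted p = 0.0357).

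Against MEF, the comparison with differentiated cells, 3 genes rose and 1 fell in EpiSC (5.93% of all genes higher, 8.79% lower), and 4 rose and 0 fell in ESC (9.36% higher, 12% lower, edgeR). The medians were 0.19 for EpiSC against 0.11 for all genes, and 0.35 for ESC against 0.22. Both comparisons use the same single MEF library, which was assumed to vary like the other groups. Rps2, Rps18 and Rpl35a were higher in both comparisons, Rpl39l was lower in EpiSC with a log2 fold change of -3.60 ± 0.93 (SE, edgeR adjusted p = 0.0298), and Rpl10l was higher in ESC. As MEF held 0 counts of Rpl10l, its difference is a lower bound of 9.55 on the log2 scale against the floor of 3 counts per library. Scaling by total counts alone moved the median of all genes from 0.11 to 0.39 for EpiSC and from 0.22 to 0.52 for ESC, and the genes' median relative to all genes only from 0.08 to 0.07 and from 0.13 to 0.12.

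**Figure D4:**
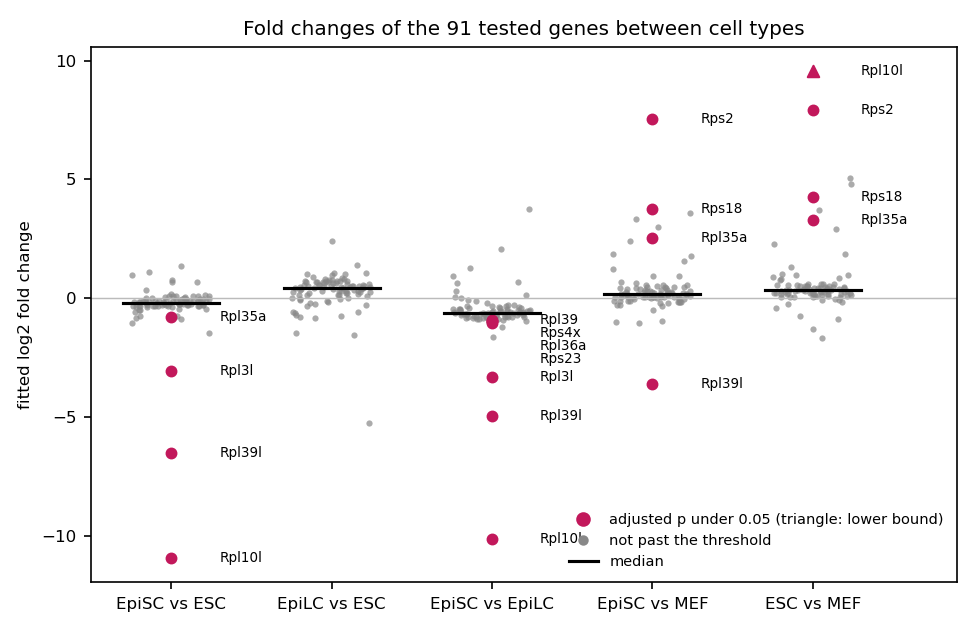
Fitted log2 fold changes (vertical axis) of the 91 tested ribosomal protein genes in the 5 comparisons between cell types, with genes past the threshold marked and Rpl10l in ESC against MEF drawn as a triangle at its lower bound of 9.55. The genes furthest from the median are Rpl10l in EpiSC against ESC and against EpiLC, Rpl29 in EpiLC against ESC (-5.23), Rps2 in EpiSC against MEF and Rpl10l in ESC against MEF.

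Near-identical copies bear on several of these values. Ribosomal protein genes have left many processed pseudogenes in mammalian genomes, and reads from a gene and a near-identical copy cannot always be told apart. Copies were genes outside the 94 at least 95% identical to a member over at least 80% of its coding sequence: 79 members had one or more, 552 copies in all, of which 534 are annotated as processed pseudogenes. Near-identical genes within the 94, such as Rps12 and Rps12-ps3, were kept apart and not added to each other. The copies took 0.502% of counts in MEF to 1.15% in wild-type EpiLC. Of the 73 core genes with copies, 41 kept a share of the common counts that varied by less than 5 percentage points over the libraries, and 18 varied by more than 20. How multiply mapped reads were counted is not stated by the sources at hand.

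Rps2 was the extreme case. The gene itself stood at 1355, 1050, 1331, 1256 and 1269 CPM in female, male, haEpi1, haEpi5 and diploid p53-knockout EpiSC, at 900 and 1077 CPM in wild-type and p53-knockout EpiLC, at 2003 and 1167 CPM in diploid and haploid ESC, and at 6.503 CPM in MEF. MEF had 102 counts on Rps2 (chr17:24718116-24721929) and 20408 on the processed pseudogene Rps2-ps13 (chrX:52898588-52899469, plus strand). Rps2 held 0.492% of the counts given to it and its copies in MEF, 44.7% in male EpiSC, 42.5% in wild-type EpiLC and 73.4% to 83.3% in the other libraries. The 3 libraries that stood apart were of 3 cell types. The log2 fold change of Rps2 alone was 7.57 ± 0.57 in EpiSC against MEF (SE, edgeR adjusted p = 0.000183), and with its copies added it was 0.43 (edgeR adjusted p = 0.542). For ESC against MEF the values were 7.94 (edgeR adjusted p = 0.000423) and 0.55 (edgeR adjusted p = 0.398).

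The first 120 coding bases of both show how close they are. Capitals mark the bases that differ, 2 in this stretch and 7 over the whole 882 (99.2% identity).
Rps2: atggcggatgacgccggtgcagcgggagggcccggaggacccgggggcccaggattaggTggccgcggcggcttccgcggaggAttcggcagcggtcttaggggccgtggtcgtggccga
Rps2-ps13: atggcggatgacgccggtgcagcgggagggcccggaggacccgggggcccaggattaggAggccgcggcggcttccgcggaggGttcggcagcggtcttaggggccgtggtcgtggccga

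Rps18 and Rpl35a also held a smaller share of the common counts in MEF and male EpiSC, and their calls against MEF held with copies added, unlike the call of Rpl35a between EpiSC and ESC given above. Rps18 held 17.4% of the common counts in MEF, 76.5% in male EpiSC, 80% in wild-type EpiLC and 93.9% to 98.6% in the others, the largest copy being Gm11361 (chr13:28257528-28258134). Its log2 fold change in EpiSC against MEF was 3.76 ± 0.47 alone (SE, edgeR adjusted p = 0.00145) and 1.36 with copies (edgeR adjusted p = 0.0296). Rpl35a held 37.9% in MEF, 81.2% in male EpiSC and 91.8% to 98.02% in the others, beside Gm10243 (chr6:48523518-48523850). Its values in EpiSC against MEF were 2.54 ± 0.39 alone (SE, edgeR adjusted p = 0.00339) and 1.26 with copies (edgeR adjusted p = 0.0334).

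Other genes were divided along other lines. Rpl26 held 4.44% of the common counts in male EpiSC, 45.3% in wild-type EpiLC, 32.7% in MEF and 82.0% to 94.8% elsewhere, the rest lying mostly on Gm15772 (chr5:3236431-3236868). Rpl30 ran the opposite way in the male library, with 78.2%, and held 53.4% in diploid p53-knockout EpiSC, 53.3% in MEF, 31.7% in haEpi5 and 6.87% to 16.7% elsewhere. Rps3a1 fell into sets: 64.5% to 64.8% in male EpiSC, diploid p53-knockout EpiSC, wild-type EpiLC and diploid ESC, 22.8% to 29.1% in female EpiSC, haEpi1, haEpi5, p53-knockout EpiLC and haploid ESC, and 98.8% in MEF. Rpl29 held 73.5% in diploid p53-knockout EpiSC and 64.1% in diploid ESC against 1.87% to 7.67% elsewhere. Rpl34 held 50.3% in diploid p53-knockout EpiSC and 2.21% to 4.97% elsewhere. All 10 libraries carry the same strain label, and the cause of these divisions was not tested.

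**Figure D5:**
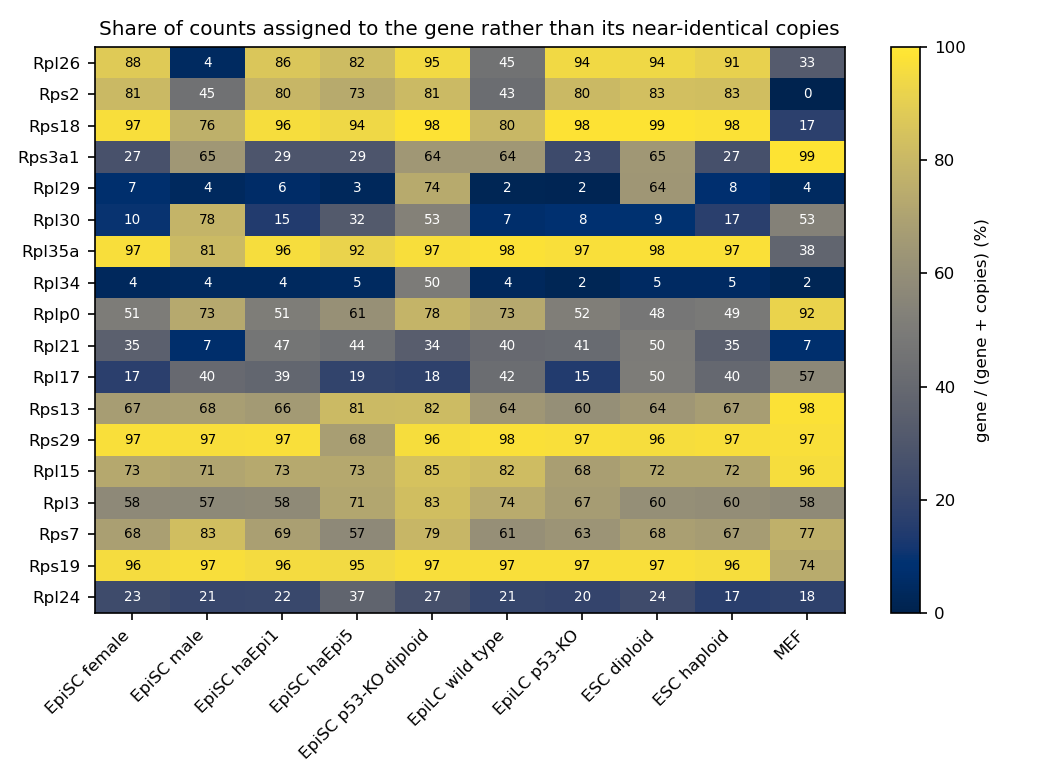
Share (%, colour) of the counts given to a gene and its near-identical copies that fell on the gene itself, for the genes whose share varied most, by library. The libraries that stand apart differ between genes: MEF, male EpiSC and wild-type EpiLC for Rps2, and diploid p53-knockout EpiSC for Rpl34.

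Within EpiSC, 3 comparisons addressed the p53 label and ploidy, fitted on the 5 EpiSC libraries with 89 of 94 genes tested. They share libraries, and the diploid p53-knockout group of 1 library was assumed to vary like the others. Haploid p53-knockout against wild-type EpiSC gave 0 calls by edgeR among the genes (0% of all genes), 4 at an unadjusted p under 0.05 (3.53% of all genes), and 0 by DESeq2 and limma (0.109% and 0% of all genes). The median was -0.01. The smallest p-values belonged to Rpl10-ps3, with a log2 fold change of 2.33, and Rps4x, with 0.66, each at an edgeR adjusted p of 0.977. Rpl10-ps3 is 100% identical to Rpl10 in coding sequence, so its counts are uncertain. Without the female library, which leaves the male one as the only wild type, assumed to vary like the others, 4 of 89 genes passed edgeR's test, against 0.811% of all genes. They were Rpl21, Rpl22l1, Rpl26 and Rpl30. In the male library Rpl21 held 6.73%, Rpl26 4.44% and Rpl30 78.2% of the counts common to them and their copies, against 33.8% to 46.6%, 82.0% to 94.8% and 9.78% to 53.4% in the other 4, while Rpl22l1 held 92.2% or more in all 5.

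Haploid against diploid p53-knockout EpiSC gave 0 calls by edgeR (0% of all genes), 3 at an unadjusted p under 0.05 (5.55%), 2 by DESeq2 (1.64%) and 0 by limma (0%), with a median of 0.17. Diploid p53-knockout against wild-type EpiSC gave 0 by edgeR (0%), 3 at an unadjusted p under 0.05 (3.86%), 2 by DESeq2 (0.728%) and 0 by limma (0%), with a median of -0.12. DESeq2 called Rpl29 and Rpl34 in both, and edgeR did so without female or without male EpiSC, where 0.873% and 1.26% of all genes passed in the comparison by ploidy and 0.236% and 0.858% in the comparison by p53 label. In the latter Rpl21 and Rpl26 also passed without the female library and Rpl30 without the male one. Each of these fits left 1 wild-type library, so the spread within groups came from haEpi1 and haEpi5 alone. Rpl29, a large-subunit protein, stood at 171 CPM in diploid p53-knockout EpiSC and at 3.34 to 6.95 CPM in the other 4, and Rpl34, also of the large subunit, at 192 CPM against 15.1 to 19.6 CPM. A single library was high in both genes, and diploid ESC was also high in Rpl29, at 200.1 CPM. With their copies, Rpl29 stood at 233 CPM in diploid p53-knockout EpiSC against 96.0 to 116 in the other 4, and Rpl34 at 382 CPM against 355 to 473, so for Rpl34 the library no longer stood apart.

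Over the 9 pluripotent libraries, with cell type, p53 label and ploidy in 1 fit, p53-knockout against wild type gave 0 calls by edgeR (0% of all genes), 2 at an unadjusted p under 0.05 (3.07%), and 0 by DESeq2 (0.0780%) and limma (0%). The median was -0.21. It was 0.12 without either EpiLC library and -0.35 without either ESC library. Levels did not overlap in 1 of the 91 genes, near the share of 1.11% of all genes. This gene was Rps29, a zinc-binding protein of the small subunit. It stood at 370, 182, 206 and 332 CPM in haEpi1, haEpi5, diploid p53-knockout EpiSC and p53-knockout EpiLC and at 697, 437, 443, 539 and 415 CPM in female EpiSC, male EpiSC, wild-type EpiLC, diploid ESC and haploid ESC. The highest of the former was thus near the lowest of the latter, and the log2 fold change was -0.90 ± 0.39 (SE, edgeR adjusted p = 1.00).

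Free Rpl5 and Rpl11, which bind 5S ribosomal RNA, are known to restrain Mdm2 and so stabilise p53 when ribosome assembly fails, and Rpl23 and Rpl26 have also been tied to this pathway, while Rps27l is a known p53 target. In the p53 comparison over pluripotent libraries none of the 5 passed the test. Their log2 fold changes were 0.01 ± 0.32 for Rpl5, -0.40 ± 0.26 for Rpl11, -0.38 ± 0.29 for Rpl23, 1.03 ± 0.85 for Rpl26 and -0.66 ± 0.44 for Rps27l (SE). Rps27l stood at 119 to 174 CPM in the 4 knockout-labelled libraries and at 115 to 387 CPM in the 5 wild-type ones, which overlap. The stalk genes Rplp0, Rplp1 and Rplp2 had log2 fold changes of -0.12 ± 0.49, -0.36 ± 0.29 and -0.46 ± 0.28 there (SE), and none passed.

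Haploid against diploid cells over the same 9 libraries gave 0 calls by edgeR (0% of all genes), 1 at an unadjusted p under 0.05 (4.72%), 1 by DESeq2 (Rpl29, 0.233%) and 0 by limma (0%). The median was -0.04. It was 0.29 without haploid ESC, 0.28 without diploid ESC and -0.22 without haEpi5. Levels did not overlap in 1 of the 91 genes, near the share of 1.02% of all genes. This gene was Rpl10, which completes the large subunit. It stood at 1324, 1211, 1147, 1738 and 1518 CPM in haEpi1, haEpi5, haploid ESC, p53-knockout EpiLC and wild-type EpiLC, and at 798, 960.3, 922 and 1049 CPM in female EpiSC, male EpiSC, diploid p53-knockout EpiSC and diploid ESC. Its log2 fold change of 0.31 ± 0.23 did not pass the test in the fit that also holds cell type and p53 label (SE, edgeR adjusted p = 0.939).

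Rpl10 is 1 of 4 core genes on the X chromosome, with Rpl36a, Rpl39 and Rps4x, a set singled out after its values were seen. Their log2 fold changes between haploid and diploid cells were 0.31, 0.28, 0.22 and 0.21, ranking 1, 3, 5 and 6 of 77 core genes, and none passed the threshold. The median of the 4 was 0.25, and all 4 stayed positive in every alternative run for this comparison. The 73 autosomal core genes had a median of -0.06 with 23 positive. The 722 X-linked genes tested had a median of 0.42, with 587 positive, against 0.00 for 17895 autosomal genes. That median was 0.02 without haploid ESC and 0.00 without diploid ESC, where the 4 core genes had medians of 0.42 and 0.42 and all tested ribosomal protein genes 0.29 and 0.28. The X-linked minus the autosomal median deviation of the core genes was 0.31 in haEpi1, 0.60 in p53-knockout EpiLC and 0.38 in haploid ESC, but -0.03 in haEpi5 and 0.00 in wild-type EpiLC. In the diploid libraries it was -0.28 in female EpiSC, -0.32 in male EpiSC, -0.12 in diploid p53-knockout EpiSC, -0.39 in diploid ESC and -0.15 in MEF, all below every haploid library. Of the core genes that fell in EpiSC against EpiLC, 3 were X-linked, of 4, and 1 autosomal, of 73. In that comparison 95 of 856 X-linked genes tested were lower and 24 higher, against 1143 lower and 772 higher of 20193 autosomal ones. With p53 label and ploidy as covariates the median of the 4 was -0.79 and still had none positive, while that of all X-linked genes went from -0.29 to -0.10. Both EpiLC libraries are haploid, and 3 of the 5 EpiSC libraries are diploid.

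Pairs of single libraries have no replicate check and were described without a test. For the shares of all genes, a filter on CPM left 11179 genes in the EpiLC pair and 11770 in the ESC pair. Ribosomal protein genes were instead taken with at least 100 counts in either library. In p53-knockout against wild-type haploid EpiLC the median log2 ratio was -0.68, with 77 of 84 negative. Of these, 13 genes (15.5%) were at least 2-fold lower, against 6.67% of all genes. None was at least 2-fold higher, against 11.2% of all genes. The lowest were Rps27rt at -2.48, Rps3a1 at -2.32, Rpl17 at -2.23, Rpl13a at -1.61 and Rpl22l1 at -1.42, and the highest Rpl10l at 0.95, Rps2 at 0.26, Rps18 at 0.24, Rpl10 at 0.20 and Rpl26 at 0.19. With near-identical copies added, Rps2 turned to -0.67, Rps18 to -0.06 and Rpl26 to -0.88, Rps3a1 stood at -0.83 and Rpl17 at -0.70, and 7 genes in place of 13 were at least 2-fold lower. Haploid against diploid ESC had a median of -0.63, with 82 of 86 negative and 9 genes (10.5%) at least 2-fold lower against 8.32% of all genes. Again none was at least 2-fold higher, against 13.6% of all genes. The lowest were Rpl29 at -4.90, Rps3a1 at -1.97, Rpl22l1 at -1.89, Rpl21 at -1.31 and Rps27rt at -1.26. The highest were Rpl30 at 0.34, Rpl39 at 0.23, Rpl10 at 0.13, Rpl36a at 0.07 and Rps4x at -0.20. With copies added Rpl30 turned to -0.57, Rpl29 stood at -1.86, Rps3a1 at -0.69 and Rpl21 at -0.79, and 6 genes in place of 9 were at least 2-fold lower.

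The remaining paralogues passed edgeR's test in none of the comparisons fitted on all their libraries after the low-count filter. Rps27rt (chr9:114982366-114982739), a retrogene whose coding sequence is 100% identical to that of Rps27, stood at 434 CPM in wild-type EpiLC and 28.4 to 118 CPM in the other 9, so counts of the pair are uncertain. Rpl22l1, the relative of the RNA-binding protein Rpl22, stood at 93.6 CPM in male EpiSC, 92.3 in diploid ESC, 79.5 in MEF, 55.9 in wild-type EpiLC, 40.8 in diploid p53-knockout EpiSC and 18.4 to 25.1 CPM in the other 5. Rpl7l1, whose product acts in ribosome assembly, ran evenly, from 121 CPM in MEF to 295 CPM in diploid ESC. Rpl36al lay between 0.881 and 3.29 CPM.

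The genes that build ribosomes and those of translation factors were set beside these values. Of 84 ribosome biogenesis genes, 29 fell and none rose in EpiSC against EpiLC, where 5.88% of all genes were lower, with a median of -0.72. The EpiLC libraries differed, with median deviations of 0.81 in wild-type and 0.38 in p53-knockout EpiLC, against -0.12 to 0.02 in the EpiSC libraries. Calls of the gene lists in this paragraph were not checked with libraries left out or with covariates. In EpiSC against ESC, 2 fell (10.1% of all genes lower), Ddx10 at -0.69 and Noc3l at -0.66 on the log2 scale, and none passed in EpiLC against ESC, where the median was 0.50. Against MEF, 21 rose in EpiSC and 37 in ESC, where 5.93% and 9.36% of all genes were higher, and none fell. Of 39 translation factor genes, 1 fell in EpiSC against ESC (Eif2s2, a subunit of initiation factor 2, at -1.12) and 1 rose against MEF in each of EpiSC and ESC. Myc, a transcription factor known to drive ribosome production, rose in EpiSC against ESC, with a log2 fold change of 2.46 ± 0.53 (SE, edgeR adjusted p = 0.0126). In EpiLC against ESC its log2 fold change was 3.17 ± 0.59 (SE, edgeR adjusted p = 0.0574). Mycn, of the same family, changed by 0.06 ± 0.57 and 0.88 ± 0.69 in these comparisons (SE) and passed in neither. The ribosomal protein genes had the median of -0.18 given above in the former and a positive median in the latter. The part of Myc and Mycn in these values was not tested.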

How the data were processed

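Counts per gene for 10 libraries were deposited as whole numbers; per the submitters' processing notes, the tools were HISAT2 2.0.5 and featureCounts 1.5.0-p3 and the build mm10. FPKM values, also deposited, were proportional to these counts over gene length within each library. Strand setting and annotation release are not given in the sources used here; 99.8% of gene identifiers are in GENCODE vM21. The members and gene lists were chosen with earlier results of these data known.

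Counts were scaled by TMM and tested with edgeR 4.0.16 (R 4.3.3) after filterByExpr, with Benjamini-Hochberg adjustment over all genes and a threshold of 0.05. Fits used all 10 libraries (21104 genes), the 5 EpiSC (18153) or the 9 pluripotent libraries (18659, with cell type, p53 label and ploidy). Alternatives used DESeq2 1.42.0, limma 3.58.1 on log2(FPKM + 1) or log2(FPKM + 0.1), other scalings and filters, copies added and libraries left out. Copies were found with blastn 2.17.0. The fits were also run on simulated counts with known changes, in which all libraries shared a common spread. That run does not cover differences in line, sex, ploidy or p53 label within a cell type.

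Members named are the paralogue pairs, up to 6 per direction past the threshold in each comparison (otherwise the 2 of smallest p), the 5 of highest and lowest mean FPKM, genes tied to Mdm2 and p53, the stalk genes, the 5 of largest and smallest SD, and 5 per direction in unreplicated pairs. Genes with divided counts, X-linked core genes and those without overlap were added after their values were seen. Every pair of libraries differed by more than sampling noise.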

Additional observations from a re-analysis of the deposited data

Results flagged for a closer look

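Each of the 94 genes was examined for a library far from the other 4 EpiSC libraries, by the gap to the nearest library as a share of the group's whole range, against Dixon's 95% value of 0.71 for 5 libraries. Of the 94, 11 passed, and 3 of the 94 were at 0 throughout and could not. Among genes past the low-count filter, 10 of 89 passed (11.2%), near the 9.92% of all 18153 genes. The rule's rate of about 1 in 20 holds for normal draws from a single group. As the 5 libraries differ in line, sex, ploidy and p53 label, that rate need not hold here. No cause was tested for any of the genes that passed.

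The male library stood high in 4 core large-subunit genes: Rpl32 at 704.4 CPM (0.731 of the range), Rpl11 at 848.1 CPM (0.773), Rpl28 at 643.8 CPM (0.721) and Rpl35 at 507.7 CPM (0.759). haEpi5, the library with the highest mitochondrial share, stood high in Rpl19 at 1126 CPM (0.80), Rps12-ps3 at 506.1 CPM (0.854) and Rpl10-ps3 at 10.08 CPM (0.874). It also stood high in Rpl24 at 5.704 CPM (0.855) and in Rpl10l at 0.3457 CPM, which is 6 counts, where the other 4 were at 0. The coding sequences of Rps12-ps3 and Rpl10-ps3 are 100% identical to those of Rps12 and Rpl10, so counts within these pairs are uncertain. The diploid p53-knockout library stood high in Rpl29 at 171.1 CPM (0.979) and Rpl34 at 192.3 CPM (0.974), beside a larger share of the counts common to these genes and their copies.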

How the results depend on the processing

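Of 353 alternative values of the 19 calls, 298 kept direction and call, 55 lost the call and 0 reversed; Rpl10l and Rpl39l, in EpiSC against ESC and against EpiLC, kept theirs in all 19 alternatives each. DESeq2 gave 1 call in EpiLC against ESC, 8 in ESC against MEF, 2 in haploid against diploid p53-knockout EpiSC, 2 in diploid p53-knockout against wild-type EpiSC and 1 in haploid against diploid pluripotent cells. Without a filter on low counts the calls were 2 in EpiLC against ESC, 15 in EpiSC against EpiLC, 7 in ESC against MEF, 3, 3 and 2 in the EpiSC comparisons (haploid knockout against wild type, haploid against diploid knockout, diploid knockout against wild type), and 1 each for p53 label and ploidy. In ESC against MEF, scaling by total counts gave 8 and limma 7 with either pseudocount. Covariates left 2 calls in EpiSC against ESC and 2 in EpiSC against EpiLC. Leaving out single libraries gave 2 to 5 calls in EpiSC against ESC, 0 to 0 in EpiLC against ESC, 2 to 8 in EpiSC against EpiLC, 3 to 6 in EpiSC against MEF, 4 to 7 in ESC against MEF (7 without male EpiSC), 0 to 4 in haploid knockout against wild-type EpiSC, 0 to 2 in haploid against diploid knockout EpiSC, 0 to 4 in diploid knockout against wild-type EpiSC, 0 to 0 for p53 label and 0 to 1 for ploidy. The summed share became 5.75% in EpiSC with copies added, and 3.65% (of protein-coding counts), 3.84% (named pseudogenes added) or 4.05% (all copies added) in MEF. Scaling by total counts moved the median of all genes from -0.05 to -0.25 in EpiLC against ESC and from 0.01 to 0.19 in EpiSC against EpiLC. Of all genes, the share called was 5.46%, 29.0%, 1.64%, 0.728% and 0.233% by DESeq2 in the order given, and 1.88%, 8.80%, 14.3%, 0.443%, 1.23%, 0.789%, 0.122% and 0.178% without a filter. It was 22% for total counts, 29.5% for limma with either pseudocount, 10.6% and 6.15% with covariates, 20.3% in ESC against MEF without male EpiSC, and 0.0049% for ploidy where leaving out either EpiLC library gave 1 call (Rpl29). The causes were not tested. No paired analysis was possible because the labels give no replicate numbers that groups share.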
